A study of Mus musculus with 6 samples.

Results

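The serpins are a family of proteins that share one fold, and most of them inhibit serine proteases. The family was defined here as every gene of the deposited table whose mouse symbol is Serpin followed by a clade letter from a to i and a number, with or without a further letter. This rule found 62 genes among the 23420 rows of the table, and it used no measured value. RNA was sequenced from livers of C57Bl/6 mice that were fed a low iron diet for 3 weeks from 4 weeks of age. The mice then received 2 intraperitoneal doses of 20 mg/kg RGFP966, an inhibitor of the histone deacetylase HDAC3, or vehicle, with 3 mice in each group, chosen for the quality of their RNA. The table heads its 6 columns with sample numbers that no source used here ties to a mouse or a treatment. The columns are therefore called libraries 1 to 6 and were described as 1 group of low-iron livers. No comparison between RGFP966 and vehicle was made, and any spread between libraries mixes treatment, mouse and technique.

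A serpin traps its protease by a suicide mechanism. The protease cuts an exposed stretch of the serpin, the reactive centre loop, and the cut loop inserts into the body of the serpin and carries the protease with it. The residue at the cut site sets which proteases are caught. Hepatocytes secrete most of the serpins of blood plasma, which hold elastases, the clotting cascade, plasmin and complement in check, and a few members of the family have lost the inhibitory activity and carry hormones or fold collagen instead. Clade A holds the secreted antitrypsin-like genes and clade B the serpins that stay inside cells. The mouse has expanded both clades by gene duplication, so that one human gene often corresponds to several near-identical mouse genes.

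The values are RPKM, read counts divided by the length of the gene and by the size of the library, so levels can be compared between genes. A gene was called expressed when its median over the 6 libraries was at least 1 RPKM. This held for 26 of the 62 serpins, against 34.1% of all rows of the table. Another 15 serpins lay below 1 RPKM but above 0 in at least 1 library, and 21 were at 0 in all 6. Clade A gave 17 expressed genes of 24. Clade B gave 2 of 27, and 19 of its genes were at 0 in every library. Both clade F genes, and the single genes of clades C, D, G and H, were expressed. In clade E, 1 of 3 genes was expressed, and in clade I 0 of 2. The serpins together took 5.18% to 6.84% of the summed RPKM of a library. Within the family, clade A held a median of 89.9% of the summed RPKM, with a range of 87.2% to 91.9%. The duplicated Serpina1 and Serpina3 genes accounted for most of it, at 85.6% to 90.5% of the family's RPKM.

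Every gene with at least 2 values above 0 had values in whole-number ratios between libraries, which returned the read counts behind them. Recovered reads came to 27654667 to 36850445 per library. The values of expressed serpins rested on 28 to 930730 reads, and in 26 of 26 the exact Poisson intervals at the 95% level of the lowest and the highest library were apart. These intervals cover counting error only, and they compare the extremes picked out of 6 values. They were made for the serpins alone, so the count cannot be read as a trait of the family. The spread of each expressed serpin was thus larger than counting error, while the spread between mice of 1 treatment is not known. The liver origin was checked with marker genes. All 4 hepatocyte markers found in the table were expressed, with a summed level of 39288 to 48523 RPKM. Markers of other cells were far lower, with highest sums of 214 RPKM for Kupffer cells, 78.1 for endothelial cells, 111 for stellate cells and fibroblasts, 69.8 for cholangiocytes, 11.9 for platelets, 2.27 for lymphocytes and 2.01 for pancreas. Neutrophil markers summed to 164, 32.7, 117, 17.4, 19.8 and 13.0 RPKM in libraries 1 to 6. Of these 5 markers, S100a8 and S100a9 were expressed, whereas Ngp, Camp and Ltf stayed under 1 RPKM in every library. In bulk liver, a change in the number of cells of a type and a change in RNA per cell cannot be told apart.

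**Figure D1:**
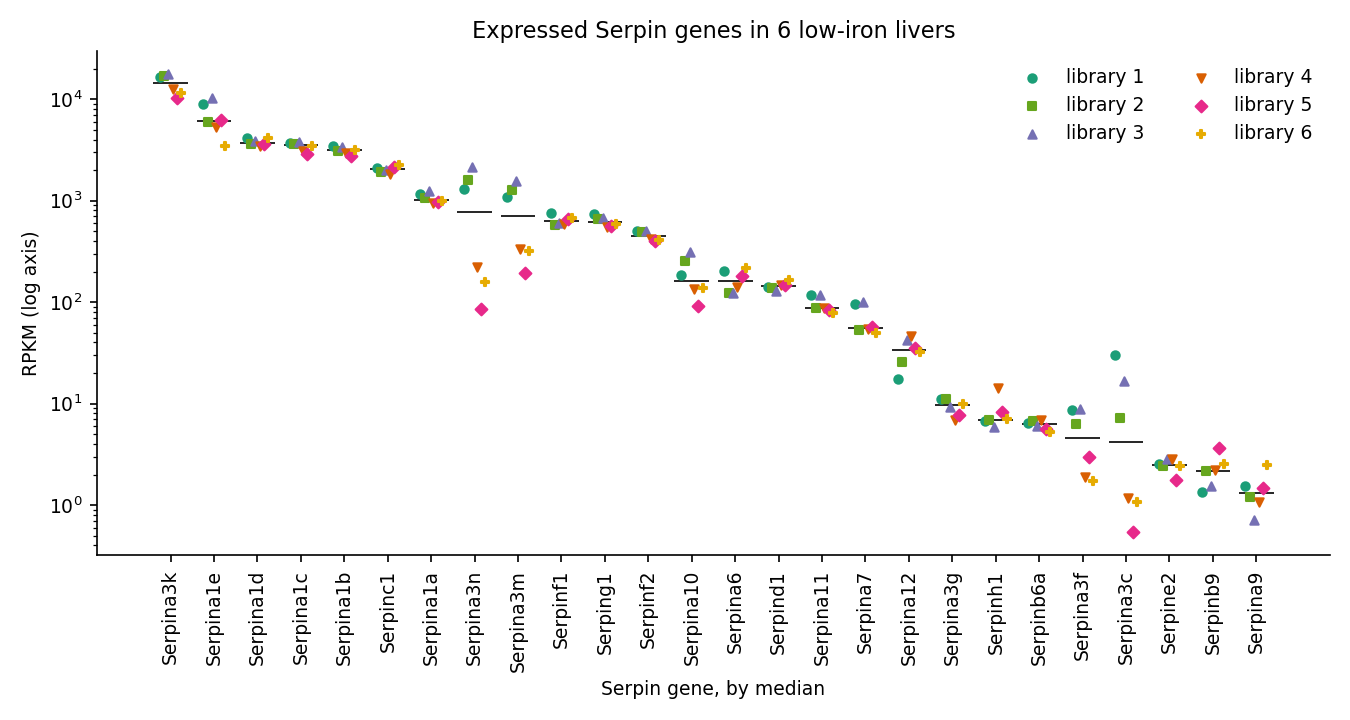
RPKM on a log axis (y) of the 26 expressed serpins, ordered by median (x). Each symbol is 1 library and each line the median of 6. Medians run from 1.32 RPKM for Serpina9 to 14442 RPKM for Serpina3k, and the symbols lie furthest apart for Serpina3n, Serpina3m, Serpina3f and Serpina3c.

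Serpina1a to Serpina1e are the mouse counterparts of the single human gene for alpha-1-antitrypsin, the main plasma inhibitor of neutrophil elastase. Which proteases each mouse copy inhibits was not examined. The 5 genes sit side by side on the reverse strand of chromosome 12. The 5 coding sequences are 96.3% to 98.5% identical to each other, and what separates them most visibly is the reactive centre loop. The coding strand of the loop, taken from GRCm38 with GENCODE M21 exons, is shown for each gene because these bases are both where the proteins differ and where a read can be placed. Each run starts at the codon of the hinge glycine and has 75 bases, and capitals mark the 18 positions at which the 5 genes are not all alike. The run lies in exon 6 of Serpina1a (chr12:103853756-103853830) and exon 5 of Serpina1b (chr12:103728323-103728397), Serpina1c (chr12:103895093-103895167), Serpina1d (chr12:103763761-103763835) and Serpina1e (chr12:103947099-103947173).
Serpina1a: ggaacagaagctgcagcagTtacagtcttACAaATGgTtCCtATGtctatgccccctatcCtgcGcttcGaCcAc
Serpina1b: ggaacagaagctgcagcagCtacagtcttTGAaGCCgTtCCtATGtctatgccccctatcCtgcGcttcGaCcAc
Serpina1c: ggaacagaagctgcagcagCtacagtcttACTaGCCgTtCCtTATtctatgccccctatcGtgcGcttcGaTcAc
Serpina1d: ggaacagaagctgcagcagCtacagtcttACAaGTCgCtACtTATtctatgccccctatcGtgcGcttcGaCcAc
Serpina1e: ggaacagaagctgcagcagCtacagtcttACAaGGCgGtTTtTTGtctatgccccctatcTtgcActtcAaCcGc
Most capitals fall in one short block in the middle of the run. Serpina1e is the most distant, with 10 to 12 differences from each of the others, while the closest pair, Serpina1c and Serpina1d, differs at 5 of the 75 bases.

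All 5 genes were highly expressed, and together they gave 41.9% to 52.6% of the family's RPKM. Serpina1e was the highest, at 8923, 5928, 10240.2, 5305, 6289.5 and 3478 RPKM in libraries 1 to 6. Libraries 1 and 3 were the high ones and library 6 the low one, a spread of 2.94-fold. The other 4 genes hardly moved. Serpina1d ranged from 3481 to 4151 RPKM with a median of 3716, a spread of 1.19-fold, the narrowest of all expressed serpins. Serpina1c had a median of 3519 RPKM (2864 to 3753) and Serpina1b one of 3130.1 (2776 to 3471). Serpina1a was the lowest of the expressed copies, with a median of 1024 RPKM and a range of 943 to 1256. Serpina1f, the remaining copy, was at 0 in all 6 libraries.

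The ranges of Serpina1d, Serpina1c and Serpina1b overlapped, yet their order was the same in every library. Serpina1d exceeded Serpina1c 1.00- to 1.25-fold, and Serpina1c exceeded Serpina1b 1.03- to 1.15-fold. Serpina1b over Serpina1a was between 2.72 and 3.19. The ratio of Serpina1e to Serpina1d was far less steady, at 2.15, 1.65, 2.67, 1.52, 1.76 and 0.838 in libraries 1 to 6. Serpina1e thus fell below Serpina1d in library 6 and in no other. As a consequence its share of the antitrypsin RPKM moved between 22.8% and 45.5%, and the summed level of the other 4 genes varied only 1.23-fold, from 10188 to 12495 RPKM.

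**Figure D2:**
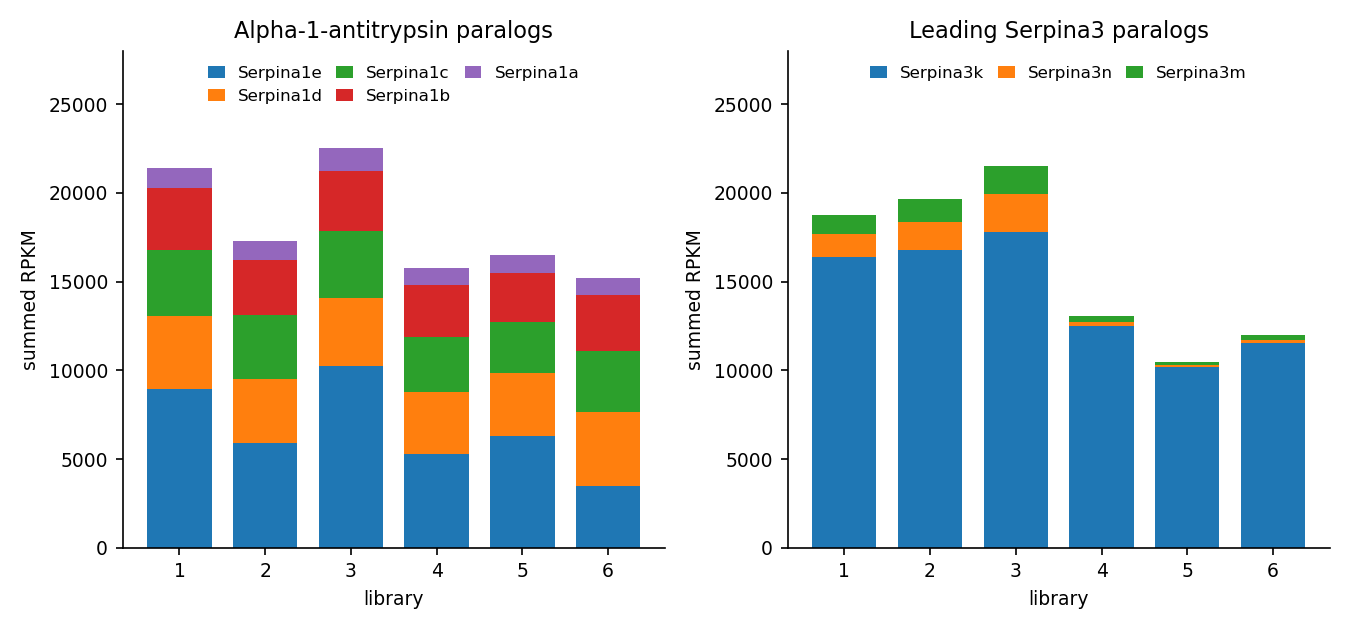
Stacked bars of RPKM (y) in each library (x) for the 5 expressed alpha-1-antitrypsin genes (left) and for Serpina3k, Serpina3n and Serpina3m (right). The antitrypsin sum ran from 15223 to 22503 RPKM with Serpina1e as the uneven layer, and Serpina3n and Serpina3m form visible layers in libraries 1, 2 and 3.

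How far these genes can be told apart depends on the reads. The authors counted with featureCounts at its default settings, which leaves out reads that align to several places. Windows of 75 bases from the transcripts of each gene were therefore searched in 141767 annotated transcripts, without a mismatch and on both strands. In Serpina1c 64.6% of windows also occurred in another serpin gene, in Serpina1a 44.5%, in Serpina1d 34.2%, in Serpina1e 19.7% and in Serpina1b 18.0%. The share of Serpina1b rests on 2315 windows, more than the 1425 bases the authors divided by, so it includes sequence they did not count. Within the coding sequence, 395 of 1165 windows of Serpina1b were shared, against 296 of 1165 of Serpina1e. Serpina1a and Serpina1c were the closest partners, sharing 809 windows. Over the 5 genes, 34.0% of windows occurred in another serpin and 37.2% in any other gene. The share fell with window length, from 48.0% in any other gene at 50 bases to 25.3% at 150 bases. All recovered counts were whole numbers, but they were found as the smallest whole numbers for an allowed length. Wholeness therefore cannot show whether reads had been divided between copies. Reads from shared stretches may be missing from the table, placed on a single copy or divided.

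Dividing each median by the share of its windows that no other serpin holds gives 9954 for Serpina1c, 7608 for Serpina1e, 5651 for Serpina1d, 3818 for Serpina1b and 1846 for Serpina1a. Serpina1c then leads in place of Serpina1e. The value for Serpina1b may be too low, because its share rests on 2315 windows against an authors' length of 1425 bases. This correction was chosen after the data were seen and assumes that every shared read was lost, so the order among the copies is not settled by the table. The comparison of 1 gene between libraries does not use it. The length the authors divided by also differed, at 1939 bases for Serpina1a against 1373 to 1442 for the other 4, which lowers the value of Serpina1a per read.

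Windows shared with another serpin were not spread evenly. Most fell in the first part of the coding sequence. Of the 149 windows that touch the loop run, 0 were shared for Serpina1a, Serpina1c and Serpina1e, but 29 each for Serpina1b and Serpina1d. Over the whole coding sequence, 796 of 1165 windows of Serpina1c and 296 of 1165 of Serpina1e were shared.

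**Figure D3:**
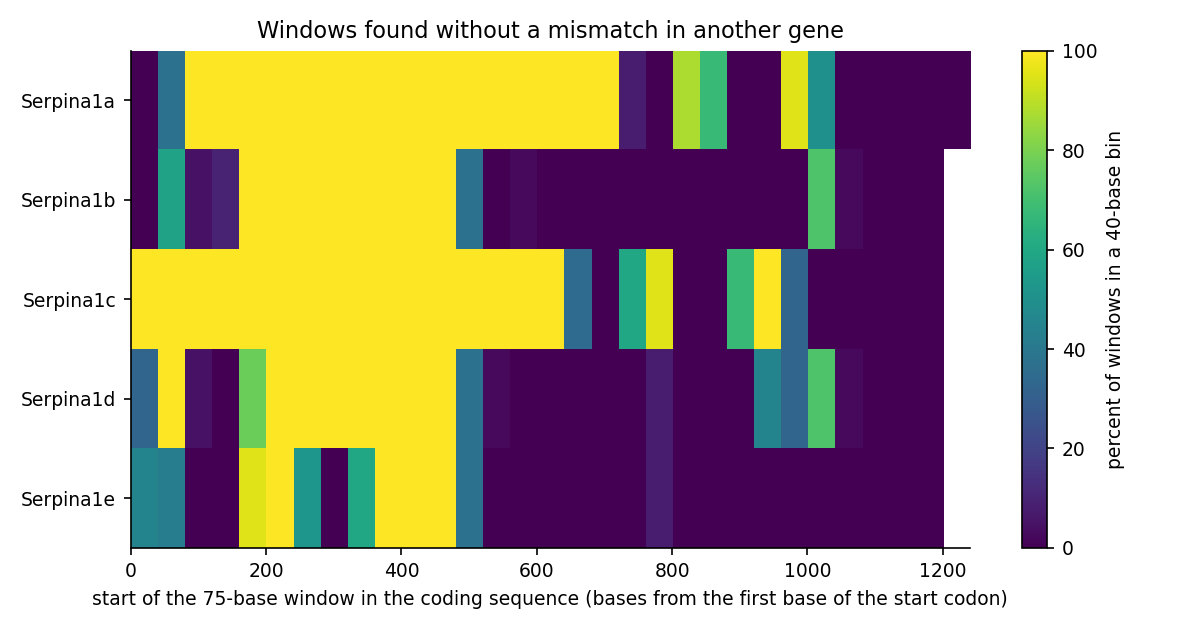
Share of 75-base windows found in another serpin gene (colour, percent per 40-base bin) by the start of the window in the coding sequence (x, bases) of Serpina1a to Serpina1e (y). Shared windows fill most of the first part of Serpina1a and Serpina1c and are interrupted in the first part of the other 3 genes. They are scarce at the end of all 5, where the loop is encoded. In Serpina1b and Serpina1d, 72.5% of windows in the bin at 1000 bases were shared. The coding sequence of Serpina1a used here starts further upstream than the others, which shifts its row to the right.

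The Serpina3 genes are the mouse counterparts of human alpha-1-antichymotrypsin, an acute-phase inhibitor of cathepsin G and related proteases. The loops of these genes differ far more than those of the antitrypsin copies. They are shown for the 3 highest members, on the forward strand of chromosome 12 in exon 5, at chr12:104345269-104345343 for Serpina3k, chr12:104393769-104393843 for Serpina3m and chr12:104413448-104413522 for Serpina3n. Runs again start at the hinge glycine codon, and capitals mark the 36 of 75 positions at which the 3 genes are not all alike.
Serpina3k: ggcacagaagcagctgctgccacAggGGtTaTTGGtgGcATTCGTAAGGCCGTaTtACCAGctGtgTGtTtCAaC
Serpina3m: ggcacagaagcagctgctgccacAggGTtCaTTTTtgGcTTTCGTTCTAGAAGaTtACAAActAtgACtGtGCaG
Serpina3n: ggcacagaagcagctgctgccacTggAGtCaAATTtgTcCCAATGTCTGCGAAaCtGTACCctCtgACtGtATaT
The hinge is the same in all 3. After it, Serpina3k and Serpina3m differ at 22 bases, Serpina3m and Serpina3n at 25, and Serpina3k and Serpina3n at 33.

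Of 11 Serpina3 genes in the table, 6 were expressed, and their levels covered more than 3 orders of magnitude. Serpina3k, also known as contrapsin, was the highest serpin of all, at 16364, 16763, 17809, 12520.0, 10200.4 and 11529 RPKM in libraries 1 to 6. It ranked 6 to 9 among all genes of the table and made up 32.6% to 40.6% of the family's RPKM. Libraries 1, 2 and 3 were above the other 3, with a total spread of 1.75-fold, which 36.8% of expressed genes exceeded.

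Serpina3n, an inhibitor known for its rise in inflammation, was at 1309, 1599, 2136, 224, 85.3 and 159 RPKM. Its values formed a high and a low set, with libraries 1, 2 and 3 high and no value between 224 and 1309 RPKM. The highest value was 25-fold the lowest, a log2 spread of 4.65, and 0.213% of expressed genes were spread more widely. Its rank among all genes ran from 49 to 725. Serpina3m had the same pattern at a lower amplitude, with 1074, 1266, 1543, 336, 193 and 316 RPKM. Here the gap lay between 336 and 1074 RPKM and the spread was 8.0-fold. The balance between the paralogs moved as well, since Serpina3k was 8.34- to 12.5-fold above Serpina3n in libraries 1 to 3 and 55.9- to 119.6-fold above it in libraries 4 to 6.

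The low members of the group behaved in different ways. Serpina3c was at 30.1, 7.15, 16.7, 1.17, 0.538 and 1.08 RPKM, a spread of 56.0-fold and the widest of the expressed serpins, on 28 to 1296 reads. Libraries 1, 2 and 3 were again the high ones, with library 1 at the top. Serpina3f was at 8.59, 6.24, 8.88, 1.88, 2.98 and 1.72 RPKM, a spread of 5.17-fold with the same libraries high. Serpina3g, also called Spi2A, an inhibitor of cathepsins inside cells, had a median of 9.59 RPKM and a range of 6.88 to 11.1, a spread of 1.62-fold that 45.8% of expressed genes exceeded. Serpina3i had a median of 0.668 RPKM, and its values in libraries 1 to 3, at 0.902 to 2.10, lay above those in libraries 4 to 6, at 0.136 to 0.433. Serpina3h, an annotated pseudogene, had a median of 0.178 RPKM, and Serpina3a, Serpina3b and Serpina3j had medians of 0.0395 to 0.0544 RPKM.

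The summed neutrophil markers were also highest in libraries 1, 3 and 2, at 164, 117 and 32.7 RPKM against 13.0 to 19.8 in the others. This sum was mostly S100a8 and S100a9. The low markers ran differently. Ngp and Camp were highest in library 1, but Ngp was lowest in libraries 2 and 3, at 0.0643 and 0.136 RPKM. Camp was at 0 in libraries 2, 3 and 5, and Ltf was highest in library 5, at 0.130 RPKM. Library 2 was near libraries 1 and 3 for Serpina3n, Serpina3m and Serpina3f, but well below them for the summed neutrophil markers and for Serpina3c. The part of neutrophils in these differences was not tested. The effective library sizes used by the authors were 0.916 to 0.951 times the recovered reads in libraries 1 to 3 and 1.06 to 1.11 times in libraries 4 to 6, which raises the first 3 against the last 3. Scaled by recovered reads, the spread was 21.3-fold for Serpina3n, 6.81-fold for Serpina3m, 47.9-fold for Serpina3c and 4.48-fold for Serpina3f, and the widest gap of these 4 genes still separated libraries 1 to 3 from 4 to 6. For Serpina3k it no longer did, and its spread fell to 1.49-fold. With columns scaled by median-of-ratios factors, the widest gap of Serpina3k still separated these libraries, with a spread of 1.76-fold.

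Read assignment was less of a limit here than in the antitrypsin genes. The coding sequences of the 6 expressed Serpina3 genes were 81.1% to 92.6% identical. Windows of 75 bases found in another serpin made up 9.65% in Serpina3m, 7.36% in Serpina3k, 7.06% in Serpina3g, 3.10% in Serpina3f, 1.31% in Serpina3n and 0.327% in Serpina3c. The annotation gives Serpina3m a transcript that starts in Serpina3k, so their exons overlap, and 146 windows were common to the pair. With Serpina3k up to 52.9-fold above Serpina3m, a small share of misplaced Serpina3k reads would weigh on Serpina3m.

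The inhibitors of clotting, fibrinolysis and complement formed the next group. Of 8 genes, 6 were expressed. Serpinc1, antithrombin, the main inhibitor of thrombin and factor Xa, had a median of 2048 RPKM with a range of 1814 to 2219. It was among the steadiest, with a spread of 1.22-fold. Its target prothrombin (F2) had a median of 1875 RPKM and a range of 1674 to 2318. No window of Serpinc1 occurred in another serpin, but its annotated exons overlap those of Zbtb37, which holds 55.9% of its windows. These were 5132 windows of annotated transcripts, against the 2161 bases the authors divided by. The share thus covers sequence they did not count, and the shared part of the counted sequence was not tested.

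Serping1, the C1 inhibitor, which blocks the first proteases of complement and plasma kallikrein, had a median of 622 RPKM (548 to 732). Serpinf2, alpha-2-antiplasmin, had a median of 451 RPKM (398 to 502). Serpind1, heparin cofactor II, another inhibitor of thrombin, had a median of 143 RPKM (130.0 to 165). These 3 genes varied 1.34-, 1.26- and 1.27-fold. Antithrombin exceeded heparin cofactor II by 12.3- to 15.4-fold in every library, so the ratio of the pair was as steady as its members.

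Serpina10, the protein Z-dependent inhibitor of factor Xa, stood out from the group. It was at 186, 251, 309.8, 133, 90.6 and 137 RPKM in libraries 1 to 6, a spread of 3.42-fold. Libraries 3 and 2 were the highest and library 5 the lowest. Serpine2, protease nexin-1, was low, with a median of 2.50 RPKM (1.77 to 2.88). Its spread was 1.63-fold, which 45.3% of expressed genes exceeded. Serpina5, the protein C inhibitor, was not expressed by the threshold, with a median of 0.220 RPKM and a 0 in library 5.

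The proteases that these serpins act on were taken from a list of target genes. Of the 16 found in the table, 11 were expressed, and the 5 others (Plat, Plau, Elane, Prtn3 and Ctsg) had medians under 1 RPKM. After prothrombin, plasminogen (Plg) was highest, with a median of 572 RPKM, against 451 for its inhibitor Serpinf2. Factor XII (F12) followed at 425 RPKM, protein C (Proc) at 417 and factor X (F10) at 296. Factor VII (F7), factor IX (F9), factor XI (F11), plasma kallikrein (Klkb1), C1ra and Masp2 ranged from 24.7 to 96.1 RPKM over all libraries. Elastase (Elane) and cathepsin G (Ctsg) are the proteases that human alpha-1-antitrypsin and alpha-1-antichymotrypsin inhibit. Elane had a median of 0.107 RPKM, and Ctsg had 0 reads in any library.

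The hormone carriers no longer inhibit proteases. Serpina6, corticosteroid-binding globulin, had a median of 161 RPKM and a range of 123 to 216, with libraries 6, 1 and 5 above the rest. Serpina7, thyroxine-binding globulin, had a median of 55.3 RPKM. Its values in libraries 1 and 3 were 96.3 and 99.7 RPKM, and the other 4 lay between 49.6 and 56.5. The ratio of Serpina6 to Serpina7 ran from 1.23 in library 3 to 4.36 in library 6.

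Among the other clade A genes, Serpina11, about which little is known, had a median of 87.9 RPKM and a range of 78.5 to 117. Serpina12, vaspin, an adipokine that inhibits a kallikrein, was at 17.5, 25.7, 42.0, 46.0, 35.0 and 32.0 RPKM. Here library 1 was the lowest and library 4 the highest, unlike the Serpina3 genes. Serpina9, centerin, a serpin of germinal centre B cells, was the lowest expressed member, with a median of 1.32 RPKM on 38 to 164 reads. Serpina11 and Serpina9 share exons with the readthrough gene Gm28577, and 36.0% of the windows of Serpina11 occur in it.

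Of the remaining expressed genes, Serpinf1, pigment epithelium-derived factor, a secreted inhibitor of angiogenesis that does not inhibit proteases, had a median of 627 RPKM and a range of 569 to 753. Serpinh1, Hsp47, the chaperone of collagen in the endoplasmic reticulum, was at 6.81, 6.87, 5.92, 14.1, 8.17 and 7.06 RPKM. Library 4 stood alone at the top, with 1392 reads against 424 to 672 in the others. The summed stellate cell and fibroblast markers of library 4 were 94.0 RPKM, inside the 70.4 to 111 RPKM of all libraries, and Dcn alone made up 88.4 RPKM of that sum. Of the 5 markers in this list, Des was highest in library 4, at 1.40 RPKM against 0.399 to 0.825 in the others, while Dcn, Col1a1, Lrat and Reln were each higher in at least 1 other library. The part of these cells in the value of library 4 was not tested.

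Clade B was nearly silent. Serpinb6a, an inhibitor of cathepsin G and other proteases inside cells, had a median of 6.22 RPKM and a range of 5.25 to 6.85. Its exons overlap other genes, which hold 20.3% of its windows. These 2994 windows also exceed the authors' length of 1888 bases, so the share for the counted sequence may differ. Serpinb9, which protects cells from granzyme B, was at 1.34, 2.15, 1.53, 2.20, 3.62 and 2.54 RPKM, with libraries 1 and 3 lowest and library 5 highest. Just below the threshold came Serpinb6b with a median of 0.921 RPKM, Serpinb1a, an inhibitor of neutrophil proteases, with 0.599, and Serpinb8 with 0.249. Serpinb1a was lowest in library 1 at 0.307 RPKM and highest in library 3 at 0.989, and these are the libraries with the highest neutrophil marker sums. The 19 genes of this clade at 0 in all libraries were Serpinb2, Serpinb3a to Serpinb3d, Serpinb5, Serpinb6c, Serpinb6d, Serpinb6e, Serpinb9b to Serpinb9g, Serpinb10, Serpinb11, Serpinb12 and Serpinb13. Serpini2 of clade I was at 0 as well. A count of 0 allows up to 3 reads, or 0.0743 to 0.118 RPM (reads of the library scaled as in RPKM, without the length). Paralogs limit some of these zeros, since 36.1% of the windows of Serpinb9f and 29.1% of those of Serpinb9g occur in another serpin, whereas no Serpinb3 gene exceeded 2.41%.

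Ordered by median, the expressed serpins formed a few steps. Of the 25 pairs of neighbours in this order, 18 had overlapping ranges and 7 did not. The clear steps were from Serpina1b to Serpinc1, from Serpinc1 to Serpina1a, from Serping1 to Serpinf2, from Serpinf2 to Serpina10, from Serpind1 to Serpina11, from Serpina7 to Serpina12 and from Serpina12 to Serpina3g. Another 4 pairs overlapped but kept their order in all 6 libraries, as Serpina3k did over Serpina1e. Below Serpina3g every neighbouring pair overlapped. In all, 15 serpins had medians of at least 100 RPKM and 7 of at least 1000. The shares of all genes at these levels were not computed, so these counts have no comparison.

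The spread over the 6 livers, as the highest over the lowest value of a gene, had a median of 1.68-fold for the expressed serpins. For all 7991 genes with a median of at least 1 RPKM and no 0, it was 1.57-fold. A spread above 2-fold was found in 11 of 26 serpins, against 24.4% of those genes. A spread above 5-fold was found in 4, against 2.40% of those genes, and the 4 were Serpina3c, Serpina3n, Serpina3m and Serpina3f. Another 11 serpins were spread less than 1.5-fold, namely Serpina1a, Serpina1b, Serpina1c, Serpina1d, Serpina11, Serpinb6a, Serpinc1, Serpind1, Serpinf1, Serpinf2 and Serping1. Serpina11 was the widest of these at 1.49-fold, and 57.9% of expressed genes exceeded it, so spreads this small were common among all genes. At the ends of the family, 93.8% of expressed genes exceeded the spread of Serpina1d and 0.138% that of Serpina3c. Library 3 was highest for 12 of the 26 genes and library 5 lowest for 9. The same counts were not made over all genes, so they cannot be read as a trait of the serpins. The RPKM summed over all genes was also highest in library 3, at 710964, against 594043 in library 5.

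**Figure D4:**
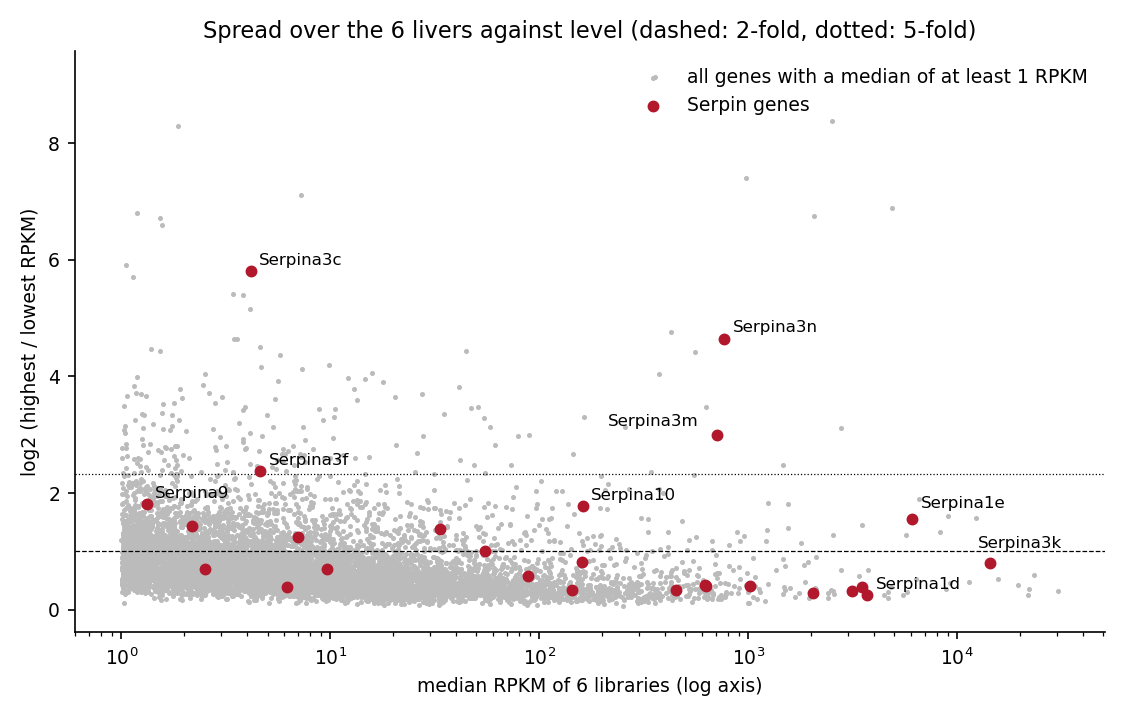
Spread of each gene over the 6 libraries as log2 of the highest over the lowest RPKM (y) against its median RPKM on a log axis (x), for genes with a median of at least 1 RPKM (grey) and the serpins among them (red). Serpina3c at 5.81, Serpina3n at 4.65 and Serpina3m at 3.00 stand high, and Serpina1d at 0.25 lies near the floor. Serpina3k at 0.80 is under the 2-fold line.

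Several of the highest serpins were neighbours on the map, beside genes at or near 0. On chromosome 12 of GRCm38, 23 of the clade A genes lie within 799.5 kb, from 103614786 to 104414329, and 16 of them were expressed. The remaining clade A gene, Serpina7, is on chromosome X. The cluster runs from Serpina10 and Serpina6 through the antitrypsin genes on the reverse strand to the Serpina3 genes, of which all but Serpina3c are on the forward strand. The 5 antitrypsin genes with medians of 1024 to 6109 RPKM are neighbours, with Serpina1f at 0 just before them. In the middle, Serpina5, Serpina3a and Serpina3b had medians of 0.220 RPKM or less. Serpina3k, Serpina3m and Serpina3n close the cluster, next to Serpina3j at 0.0503 RPKM. Levels therefore changed by over 5 orders of magnitude between neighbours, and the widely spread genes were found both in the middle (Serpina3c, Serpina3f) and at the end (Serpina3m, Serpina3n). The silent clade B genes lie in arrays on chromosomes 1 and 13.

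**Figure D5:**
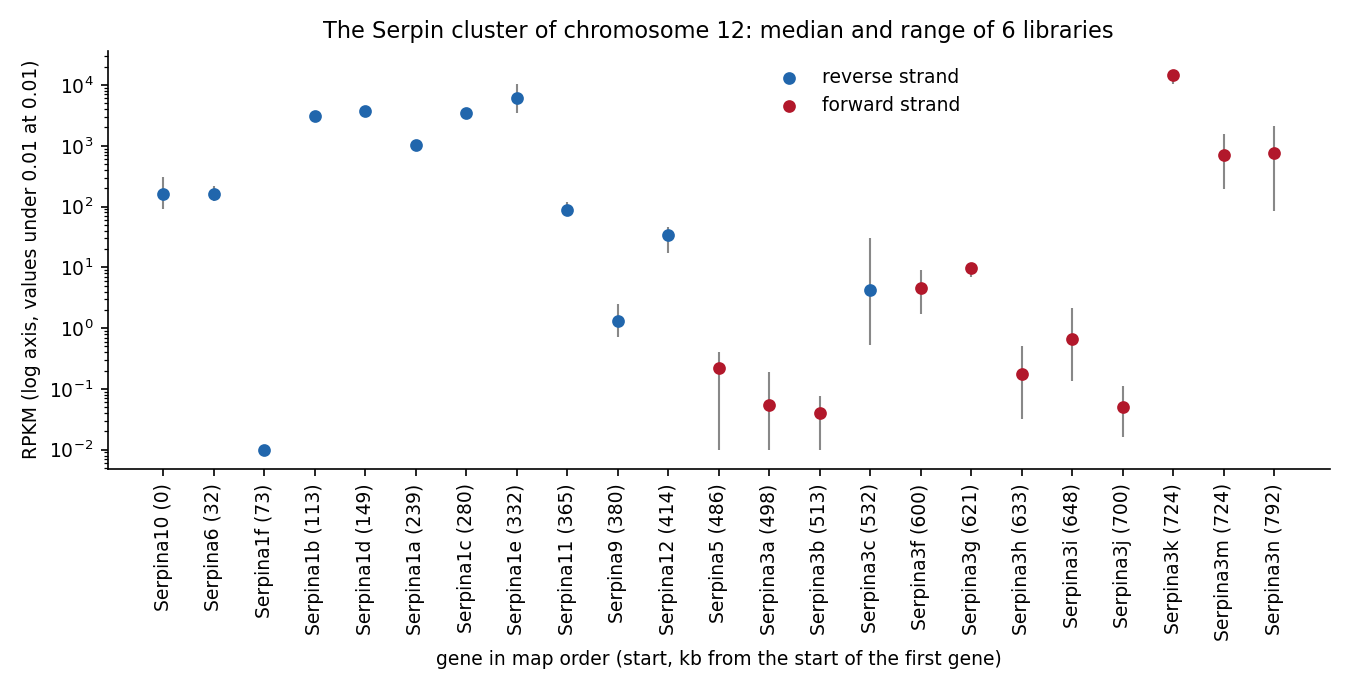
Median RPKM (points) and range over 6 libraries (bars) on a log axis (y) for the 23 serpins of chromosome 12 in map order (x), coloured by strand, with the distance in kb from the first gene in parentheses. High blocks, Serpina1b to Serpina1e and Serpina3k to Serpina3n, flank a stretch from Serpina9 to Serpina3j in which no median exceeded 33.5 RPKM.

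Promoters came from RefSeq on GRCm38.p6, as 250 bases before and 50 after the start of each gene. They were found for 52 of the 62 serpins, 20 of the 26 expressed ones among them. Searched on both strands, the letters GTTAAT, one arm of the palindrome that the hepatocyte factor HNF1 recognises, occurred in 7.20% of 27025 promoters and in 7 of the 20 expressed serpins. These were all 5 expressed antitrypsin genes, Serpina3c and Serpina7. The letters TTCNNNGAA, which STAT factors recognise, occurred in 8.47% of all promoters and in 4 of the 20, namely Serpina11, Serpina3f, Serpina3g and Serpinb6a. Neither was in the window of Serpina3n. The promoters of the lowest and the highest antitrypsin gene, Serpina1a at chr12:103863570-103863869 and Serpina1e at chr12:103956848-103957147, are shown on the reverse strand with GTTAAT in capitals, because these genes differ in level and in spread.
Serpina1a: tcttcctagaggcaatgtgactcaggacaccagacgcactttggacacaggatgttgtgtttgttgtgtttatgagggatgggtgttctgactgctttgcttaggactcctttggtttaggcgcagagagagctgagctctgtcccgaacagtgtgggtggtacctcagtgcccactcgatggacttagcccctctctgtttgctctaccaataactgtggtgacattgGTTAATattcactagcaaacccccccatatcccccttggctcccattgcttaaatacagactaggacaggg
Serpina1e: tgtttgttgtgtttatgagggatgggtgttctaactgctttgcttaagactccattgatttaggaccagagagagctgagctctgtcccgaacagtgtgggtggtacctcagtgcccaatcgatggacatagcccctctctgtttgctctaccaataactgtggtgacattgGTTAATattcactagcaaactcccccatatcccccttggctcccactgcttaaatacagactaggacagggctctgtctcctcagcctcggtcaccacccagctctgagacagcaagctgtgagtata
The runs are offset because the annotated starts differ, and GTTAAT begins 21 bases before the start of Serpina1a and 78 before that of Serpina1e, in a stretch that both genes share. A match of letters is a description of the sequence and says nothing of binding in these livers.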

How the data were processed

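Liver RNA of 6 mice was converted to cDNA with Smartseq2 reagents and made into libraries with a Nextera kit. By their methods and notes, the authors checked reads with FastQC 0.11.4, aligned them with STAR 2.4.2a to mm10 with UCSC transcripts and counted them per gene with featureCounts of Subread 1.5.0-p2 at default parameters. The deposited values are RPKM, which the authors made with edgeR. The read length is not given in the sources used here. No key to the 6 columns was found, so they formed 1 group, no test between groups was run, and a difference was judged by the ranges of the 6 values. Dixon's criterion for a single distant value was applied to each expressed serpin.

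RPKM values of a gene are whole multiples of what 1 read is worth. Values came out whole for 14967 of 14967 genes with at least 2 values above 0, at a whole-read tolerance of 1e-06. Of 5512 genes searched, 126 had a reference length that gave the same depth, and these set the effective library sizes, 25470288, 26796398, 31634880, 40359632, 30798643 and 38927825 reads for libraries 1 to 6. Reads of a serpin are the smallest whole numbers with a length of at least its longest coding sequence, so a common factor could be missed. Poisson intervals are exact at the 95% level and cover counting error only.

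Every serpin with a median of at least 1 RPKM was named, and of the others those at 0, paralogs of the Serpina1, Serpina3, Serpinb1, Serpinb3, Serpinb6 and Serpinb9 groups, and the 5 nearest to the threshold on each side. Genes that overlap a serpin were added after the values were seen. The result of 1 serpin is not reported here. The members and gene lists were chosen with earlier results of these data known. Positions and transcripts came from GENCODE M21 (GRCm38), and promoters from RefSeq (GRCm38.p6). Scripts used Python 3.11.15, NumPy 2.4.6, pandas 2.3.3, SciPy 1.17.1, Biopython 1.88, Numba 0.67.0 and Matplotlib 3.10.9, and read recovery and the window search were tested on simulated data. The alternatives were other thresholds, scalings, window lengths and leaving out each library.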

Additional observations from a re-analysis of the deposited data

Results flagged for a closer look

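Among the 26 expressed serpins, 1 value stood apart from the other 5 by the criterion for a single distant value in 6. This was Serpinh1 in library 4, at 14.1 RPKM, where the nearest other value was 8.17 RPKM and the gap took 0.726 of the whole range, above Dixon's critical value at the 95% level. Chance alone gives such a value in about 1 of 20 genes.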

How the results depend on the processing

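The count of expressed serpins, 26, was 21 to 29 under the other thresholds and scalings and 26 whichever library was left out. The clade A share, 89.9%, became 87.4% on reads in place of RPKM, 80.7% without the Serpina1 genes and 82.3% without the Serpina3 genes, and lay between 89.2% and 90.6% without 1 library. The median spread, 0.75 on the log2 scale, became 0.58 among serpins of at least 5 RPKM, and measured as the SD of log2 values over all 26 it was 0.31. Without 1 library it was 0.64 to 0.75, and under the other scalings 0.66 to 0.79. The share of antitrypsin windows found in another gene, 37.2% at 75 bases, was 48.0% at 50 bases, 31.6% at 100, 25.3% at 150 and 34.0% against serpins alone. The 7 neighbouring pairs with ranges apart were 6 to 8 without 1 library. Serpina1c moved from rank 3 of the antitrypsin genes to rank 1 at each window length once its level was divided by its unshared share. Of 7 serpins whose widest gap put libraries 1 to 3 above, 4 remained when scaled by recovered reads (Serpina3c, Serpina3f, Serpina3m and Serpina3n), while Serpina3k, Serping1 and Serpinf2 did not. All 7 remained with median-of-ratios factors. The last 2 analyses, and the rescaling by recovered reads, were chosen after the data were seen. No paired analysis was possible because the columns carry no replicate numbers of the labels. Depth did not limit the expressed serpins, but for genes at 0 it leaves up to 3 reads.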

Other observations

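For 8 of the 26 expressed serpins, the widest gap between neighbouring values split the libraries 3 against 3. For 7 of them, libraries 1, 2 and 3 were above libraries 4, 5 and 6, and for 0 the reverse. Among all 7991 genes with a median of at least 1 RPKM and no 0, the first split was found in 5.72% and the second in 3.93%. The gap was 6.10-fold in Serpina3c, from 1.17 to 7.15 RPKM, and 5.84-fold in Serpina3n, from 224 to 1309. It was 3.19-fold in Serpina3m, from 336 to 1074 RPKM, and 2.10-fold in Serpina3f, from 2.98 to 6.24. In Serpina3k it was 1.31-fold, in Serpinf2 1.18-fold and in Serping1 1.11-fold, and in these 3 the widest gap no longer separated the same libraries when values were scaled by recovered reads. The treatment of these libraries is not known, and the split was not compared with it.

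In Serpina1e, Serpina7 and Serpina11, among others, libraries 1 and 3 were highest. Serpina1e was at 8923 and 10240.2 RPKM there and at 3478 to 6289.5 in the other 4. Serpina7 was at 96.3 and 99.7 RPKM there and at 49.6 to 56.5 in the other 4. Serpina11 was at 116 and 117 RPKM there and at 78.5 to 88.1 in the other 4. The widest gap of Serpina1e, at 1.53-fold, instead set library 6 below the rest.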
